A study of Homo sapiens with 6 samples.

Results

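The genes described here are the amino acid transporter families SLC1, SLC3, SLC7, SLC36, SLC38 and SLC43 in cells labelled HepG2, an established human cell line grown from a liver cancer. The members were all protein-coding genes whose symbols begin with SLC1A, SLC3A, SLC7A, SLC36A, SLC38A or SLC43A, with the exception of SLC38A9, so the rule itself reads symbols and no measured value. The rule found 31 members among the 28563 genes of the deposited table, while 9 other protein-coding genes of these families were not analysed here. Because the rule reads symbols, it also took SLC7A6OS, which is named for its place opposite SLC7A6 and is not a transporter.

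HepG2 cells were treated with polydatin (PD), the glucoside of the plant stilbene resveratrol, at 336 µM for 24 h, or with its solvent DMSO for the same time. Each group held 3 libraries from 3 separate dishes of the same line, and no genetic change was made to either group. The dose is the one in the sample labels, and the methods of the paper name a slightly lower dose. RNA-seq of poly(A) RNA was expressed as FPKM, the fragments of a gene scaled by its length and by the total of its library, so every value is relative to the rest of the RNA of the library. The comparison of PD with DMSO asks which transcripts differed after treatment with PD.

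Cells take up amino acids through membrane carriers that differ in the amino acids they accept and in what they exchange for them. The light chains of the SLC7 family, such as SLC7A5, SLC7A6 and SLC7A11, reach the plasma membrane bound to the heavy chain SLC3A2 (CD98) and act as exchangers. SLC1A5, SLC38A1 and SLC38A2 carry glutamine and other neutral amino acids with sodium, and members of the SLC36 and SLC38 families also work on lysosomes, where they are linked to nutrient sensing by mTORC1. Several transporter genes are known targets of ATF4, a factor made when amino acids run short, and SLC7A11 is a known target of NRF2, the factor of the antioxidant response.

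The smallest DMSO library had a total of 16763318 fragments and the largest 17274927, and PD libraries ran from 16308476 to 18071632. These totals were recovered from the steps between FPKM values, since a gene gains a fixed amount of FPKM with each fragment. Hepatocyte markers were mostly near 0 in both groups. Of 20 listed markers 11 had a row in the table and 2, CPS1 and RBP4, reached 1 FPKM in a group, while HNF4A, SERPINA1 and APOA1 had group means of at most 0.0963 FPKM. HepG2 cells are known to express these genes, so levels near 0 go against the labelled cell line, whose name is used here only as the labels give it. The summed level of the hepatocyte markers was 222 to 229 FPKM in DMSO and 108 to 113 FPKM in PD, nearly all of it CPS1, the mitochondrial enzyme that starts the urea cycle, and the part of this difference in the results was not tested. Markers of fibroblasts summed to 4.40 to 5.29 FPKM in DMSO and 4.75 to 5.05 FPKM in PD, and markers of endothelial cells and leukocytes summed to at most 0.0801 and 0.180 FPKM in any library. In bulk RNA, fewer cells of a kind and less RNA per cell cannot be told apart.

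Regulatory sequence before the start of 5 members is shown because these genes had the largest changes that also had a motif match, or, for SLC3A2, encode the heavy chain shared by the light chains. The sequences are from RefSeq on GRCh38.p14, written 5′ to 3′ on the strand of the gene. Each ends at the base before the start, except that of SLC43A1, which ends earlier. Capitals mark matches to the E-box CACGTG or to TGACNNNGC, the core of the antioxidant response element, on either strand.
SLC36A1: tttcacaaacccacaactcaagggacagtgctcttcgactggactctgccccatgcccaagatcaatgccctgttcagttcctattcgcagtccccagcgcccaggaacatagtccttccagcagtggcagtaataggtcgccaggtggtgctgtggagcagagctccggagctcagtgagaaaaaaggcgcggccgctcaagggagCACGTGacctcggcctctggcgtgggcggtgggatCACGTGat
SLC43A1: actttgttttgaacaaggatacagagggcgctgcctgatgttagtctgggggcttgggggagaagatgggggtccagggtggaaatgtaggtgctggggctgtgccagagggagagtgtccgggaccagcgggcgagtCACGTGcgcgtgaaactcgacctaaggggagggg
SLC38A5: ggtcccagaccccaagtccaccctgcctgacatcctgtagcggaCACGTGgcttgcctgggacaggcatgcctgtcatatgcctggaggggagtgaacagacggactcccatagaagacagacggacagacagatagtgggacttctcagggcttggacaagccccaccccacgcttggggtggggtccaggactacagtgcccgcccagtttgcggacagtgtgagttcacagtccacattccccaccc
SLC7A6: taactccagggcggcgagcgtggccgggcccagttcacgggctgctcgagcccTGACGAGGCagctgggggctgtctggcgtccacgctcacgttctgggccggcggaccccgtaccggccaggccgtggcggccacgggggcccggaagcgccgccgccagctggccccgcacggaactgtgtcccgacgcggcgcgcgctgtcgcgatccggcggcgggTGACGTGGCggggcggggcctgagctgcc
SLC3A2: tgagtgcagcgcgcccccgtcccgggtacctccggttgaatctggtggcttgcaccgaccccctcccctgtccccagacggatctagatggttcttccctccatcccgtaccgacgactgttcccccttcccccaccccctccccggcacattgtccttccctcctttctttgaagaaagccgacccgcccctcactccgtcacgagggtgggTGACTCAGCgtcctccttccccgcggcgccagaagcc

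The window of SLC36A1 lies at chr5:151447353-151447602 on the plus strand and holds 2 E-boxes, which begin 43 and 8 bases before the start. SLC43A1 is read from the minus strand at chr11:57515781-57515952, with an E-box that begins 112 bases before the start. The end of its window nearest the start reaches into an annotated exon and is left out, so the E-box lies closer to the end of the letters shown. The window of SLC38A5, at chrX:48470261-48470510 on the minus strand, has an E-box that begins 206 bases before the start. SLC7A6 has TGACNNNGC at 197 and 29 bases before the start in its window at chr16:68264276-68264525 on the plus strand, and SLC3A2 has it at 37 bases before the start at chr11:62881449-62881698 on the plus strand. The TGACNNNGC match of SLC3A2 also contains the letters of an AP-1 site. FPKM are given per gene, so they do not tell which start of a gene was used. SLC36A1 and SLC43A1 have 2 RefSeq starts each and SLC3A2 has 3. The windows of the other starts of these genes held no match to either motif.

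RefSeq windows of 250 bases were found for 25 of the 31 members, 44 windows in all, some of which overlap. An E-box was present in 7 of the 44 (15.9%), against 6.34% of the 35116 windows of all genes, and its members were SLC1A5, SLC36A1, SLC38A5, SLC43A1, SLC7A5, SLC7A7 and SLC7A8. These include members that rose, fell or did not pass the test. TGACNNNGC was present in 6 windows (13.6%, against 10.9% of all), and TGATGNAA, the core of the C/EBP-ATF response element bound by ATF4, in 2 windows (4.55%, against 3.14%), those of SLC1A3 and SLC1A5. A match is a description of letters and not a bound site.

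Among the 31 members, 21 averaged 0.5 FPKM or more in the 6 libraries and entered the test. The other 10 were SLC1A3, SLC38A3, SLC38A4, SLC38A8, SLC3A1, SLC7A4, SLC7A7, SLC7A8, SLC7A9 and SLC7A10, with at most 0.113 FPKM as a group mean and at most 13 fragments in any library. SLC7A8 alone of them had enough fragments for voom, where its log2 fold change was 0.02 (SE 0.369, adjusted p = 0.96), and a difference in the other 9 was not detectable at this depth. They include SLC3A1, the heavy chain of the cystine carrier of kidney and gut, and its light chain SLC7A9, as well as the glutamate carrier SLC1A3.

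Summed over all members, the level was 1784 ± 31.7 FPKM (SD, n = 3) in DMSO and 1663 ± 22.8 FPKM in PD, and the libraries of the groups did not overlap, with 1757 to 1819 FPKM in DMSO and 1649 to 1689 FPKM in PD. The members held 0.973% to 0.994% of the fragments of the DMSO libraries and 0.896% to 0.914% of those of the PD libraries. The sum is mostly SLC7A5, with 52.2% of the FPKM of the members in DMSO and 55.1% in PD. By family, the summed level of SLC38 was 271 ± 10.6 FPKM in DMSO and 226 ± 10.2 FPKM in PD. The SLC36 sum was 6.98 ± 0.491 FPKM in DMSO and 12.2 ± 0.418 FPKM in PD. SLC7 summed to 1050.1 ± 26.9 FPKM in DMSO and 1007 ± 22.9 FPKM in PD, SLC1 to 148 ± 3.39 and 153 ± 4.19 FPKM, and SLC43 to 23.5 ± 1.5 and 26.8 ± 0.713 FPKM.

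**Figure D1:**
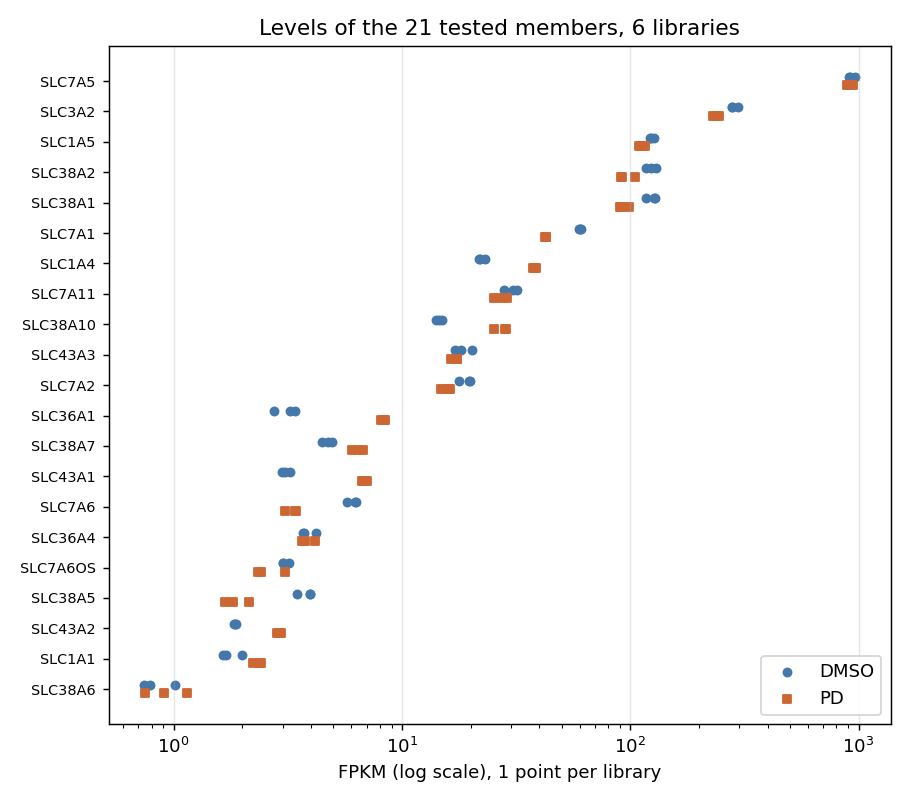
FPKM of the 21 tested members in each of the 6 libraries, on a log scale, with circles for DMSO and squares for PD, ordered by the mean over all libraries. SLC7A5 stands alone near the top in every library, SLC3A2 follows, and the glutamine carriers SLC1A5, SLC38A1 and SLC38A2 lie together.

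In the comparison of PD with DMSO, 7 tested members were higher, 8 were lower and 6 did not pass, where passing meant an adjusted p no larger than 0.05 in limma on log2(FPKM + 1), with Benjamini-Hochberg adjustment over 14400 genes. Of all genes tested, 58.1% passed, 31.9% higher and 26.2% lower, so 15 of 21 members is to be read against a high background. The libraries of the groups did not overlap in 15 members, 7 above and 8 below, whereas 65.4% of all genes tested had groups that did not overlap, 35.6% with PD above and 29.9% with PD below. A DEG had to change at least 2-fold on the log2(FPKM + 1) scale as well. On that scale 1 of the 21, SLC36A1, rose by that much and 0 fell by that much. The background was 3.61% of all genes tested, 2.04% up and 1.57% down. The ratio of the group mean FPKM was also beyond 2-fold for SLC43A1, at 2.20, and for SLC38A5, at 0.496. The median log2 fold change was -0.11 over the tested members and 0.01 over all genes tested, and 15 tested members had a change of less than 1.5-fold on the log2(FPKM + 1) scale.

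The members were also divided by their level. Of the 11 tested members with a mean of at least 10 FPKM, 6 were lower, 2 were higher and 3 did not pass, whereas 38.1% of all genes at that level were higher and 33.2% were lower. Of the 10 under 10 FPKM, 5 were higher, 2 were lower and 3 did not pass, against 28.7% and 22.7% of all genes at that level. The limit of 10 FPKM was chosen after the values were seen, and the difference between the upper and lower members was not tested.

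**Figure D2:**
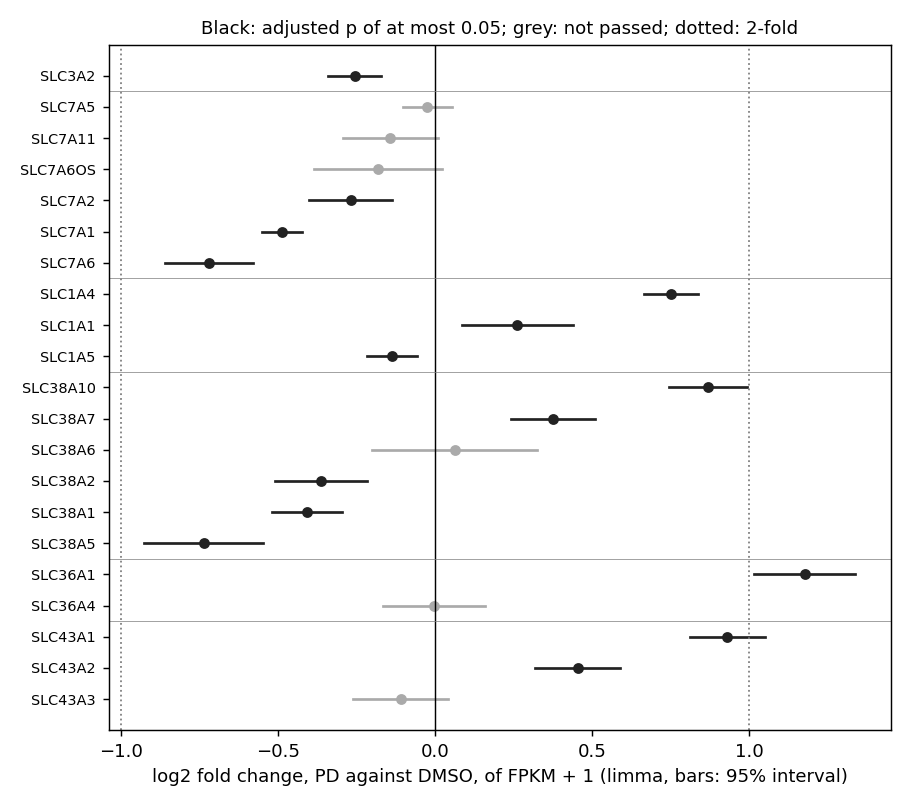
Log2 fold change of FPKM + 1 in PD against DMSO for the 21 tested members, grouped by family, with 95% intervals from limma and n = 3 per group. Black points passed an adjusted p of 0.05, grey points did not, and SLC36A1 lies beyond the dotted 2-fold line.

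The heavy chain SLC3A2 (ENSG00000168003, chr11:62856004-62888880 in hg38) was lower in PD. Its level was 279, 278 and 295 FPKM in the DMSO libraries and 238, 245 and 229.9 FPKM in the PD libraries, so each PD library lay below each DMSO library. The log2 fold change was -0.26 (SE 0.0363, adjusted p = 0.00074), and the ratio of the group means was 0.837.

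SLC7A5 (LAT1, ENSG00000103257, chr16:87830023-87869507), the light chain that exchanges glutamine for leucine and other large neutral amino acids, was the most abundant member. It stood at 909, 921 and 964 FPKM in DMSO and at 893, 943 and 911 FPKM in PD, and it was the 15th most abundant of all genes in DMSO and the 20th in PD. The groups overlapped, and the log2 fold change was -0.02 (95% interval -0.10 to 0.05, adjusted p = 0.55). Its pseudogene copy SLC7A5P1, with which it could share reads, had 6.09 ± 0.811 FPKM in DMSO and 4.34 ± 1.22 FPKM in PD. Per library, the ratio of SLC7A5 to SLC3A2 FPKM was 3.26, 3.32 and 3.27 in DMSO and 3.76, 3.84 and 3.96 in PD, and every PD ratio was above every DMSO ratio.

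SLC7A6 (ENSG00000103064, chr16:68264516-68301823), the light chain of the y+LAT2 exchanger of cationic and neutral amino acids, fell. The DMSO libraries held 5.75, 6.29 and 6.2 FPKM and the PD libraries 3.45, 3.08 and 3.39 FPKM. The groups were well apart, with a log2 fold change of -0.72 (SE 0.0596, adjusted p = 5.5e-05) and a ratio of 0.544. SLC7A6 overlaps SLC7A6OS on the other strand, and since the sources used here do not state whether reads were counted by strand, reads of the overlap cannot be told apart. SLC7A6OS had 3.08 ± 0.114 FPKM in DMSO and 2.61 ± 0.402 FPKM in PD, with a log2 fold change of -0.18 that did not pass (95% interval -0.39 to 0.02, adjusted p = 0.11).

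SLC7A11 (xCT, ENSG00000151012, on chromosome 4), the cystine and glutamate exchanger that feeds glutathione synthesis, had 32.0, 30.5 and 28 FPKM in DMSO and 28.9, 25.3 and 27.6 FPKM in PD. The groups overlapped, and the log2 fold change was -0.14 (95% interval -0.29 to 0.01, adjusted p = 0.095). It passed in voom on the fragments, at -0.17 with an adjusted p of 0.0044, and the settings under which it passes are given in the closing section. Its antisense gene SLC7A11-AS1 had 1.10 ± 0.130 FPKM in DMSO and 0.801 ± 0.131 FPKM in PD.

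The carriers of cationic amino acids, which need no heavy chain, were lower. SLC7A1 (CAT1, ENSG00000139514, on chromosome 13), the main arginine and lysine carrier of most cells, had 59.5, 60.3 and 60.6 FPKM in DMSO and 42.4, 42.6 and 42.9 FPKM in PD. The replicates of each group lay close together and the groups far apart, and the log2 fold change was -0.49 (SE 0.0271, adjusted p = 1.1e-05). SLC7A2 (CAT2) had 19.0 ± 1.14 FPKM in DMSO and 15.7 ± 0.779 FPKM in PD, with a log2 fold change of -0.27 (adjusted p = 0.0050). With SLC7A6, all 3 members of SLC7 that passed were lower, and none was higher.

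The neutral carriers of the SLC1 family moved in opposite directions. SLC1A4 (ASCT1, ENSG00000115902, on chromosome 2), which exchanges alanine, serine, cysteine and threonine, had 21.7, 22.0 and 23.2 FPKM in DMSO and 37.6, 38.6 and 38.4 FPKM in PD. It rose by 0.75 on the log2 scale (SE 0.0366, adjusted p = 6.5e-06), a ratio of 1.71. SLC1A5 (ASCT2, ENSG00000105281, on chromosome 19), which also accepts glutamine, had 122, 123 and 127 FPKM in DMSO and 109, 112 and 116 FPKM in PD. It was lower by a small amount that was still larger than the spread of the libraries, with a log2 fold change of -0.14 (SE 0.0342, adjusted p = 0.011).

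The ratio of SLC1A5 to SLC1A4 FPKM was 5.60, 5.60 and 5.47 in the DMSO libraries and 2.90, 2.92 and 3.03 in the PD libraries. SLC1A4 also changed its place in the order of levels, since all its DMSO libraries lay below those of SLC7A11 and all its PD libraries lay above them. The neuronal and epithelial glutamate carrier SLC1A1 (EAAC1) had 1.78 ± 0.190 FPKM in DMSO and 2.33 ± 0.0971 FPKM in PD, with a log2 fold change of 0.26 (adjusted p = 0.019). That call is not firm, since the adjusted p was 0.056 to 0.057 when DMSO replicate 1 or 3 or PD replicate 1 or 2 was left out, and 0.056 without the filter on low FPKM.

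The abundant sodium-coupled neutral carriers of the SLC38 family were both lower in PD. SLC38A1 (SNAT1, ENSG00000111371, on chromosome 12), a glutamine carrier of the plasma membrane, had 128, 127 and 117 FPKM in DMSO and 98.6, 90.0 and 91.2 FPKM in PD. Its log2 fold change was -0.41 (SE 0.0478, adjusted p = 0.00029). SLC38A2 (SNAT2, ENSG00000134294, also on chromosome 12), the carrier known for its increase in cells short of amino acids, had 123, 130.1 and 117 FPKM in DMSO and 105, 91.0 and 91.8 FPKM in PD. Its log2 fold change was -0.36 (SE 0.0627, adjusted p = 0.0019). The groups did not overlap in either gene, and the ratio of SLC38A2 to SLC38A1 FPKM was 0.996 ± 0.0331 in DMSO and 1.03 ± 0.0317 in PD.

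In DMSO the levels of SLC1A5, SLC38A1 and SLC38A2 overlapped and cannot be ordered. In PD the libraries of SLC1A5, at 109 to 116 FPKM, lay above all those of SLC38A1 and SLC38A2, which overlapped each other.

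SLC38A5 (SNAT5, ENSG00000017483, chrX:48458537-48470260), a carrier of glutamine, histidine and serine, fell the most of the tested members by ratio. It had 3.94, 3.48 and 3.95 FPKM in DMSO and 1.82, 2.13 and 1.68 FPKM in PD, resting on 234 to 273 fragments per DMSO library and 110 to 150 per PD library. No PD library reached the lowest DMSO library, and the log2 fold change was -0.74 (SE 0.0809, adjusted p = 0.00021) with a ratio of 0.496. The pseudocount keeps it short of the 2-fold limit on the log2(FPKM + 1) scale, and in voom on the fragments its log2 fold change was -1.04.

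The other members of SLC38 were higher or did not pass. SLC38A10 (ENSG00000157637, on chromosome 17), a member of the family described in intracellular membranes, had 14.5, 14.2 and 15.0 FPKM in DMSO and 25.4, 28.7 and 28.3 FPKM in PD. It rose by 0.87 (SE 0.0529, adjusted p = 1.5e-05), and each PD library was above each DMSO library. SLC38A7 (SNAT7), which exports glutamine from lysosomes, had 4.72 ± 0.221 FPKM in DMSO and 6.41 ± 0.351 FPKM in PD, with a log2 fold change of 0.37 (adjusted p = 0.0010). SLC38A6 was at 0.846 ± 0.146 FPKM in DMSO and 0.932 ± 0.197 FPKM in PD, with an interval of -0.20 to 0.33 that leaves a change of either sign possible.

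**Figure D3:**
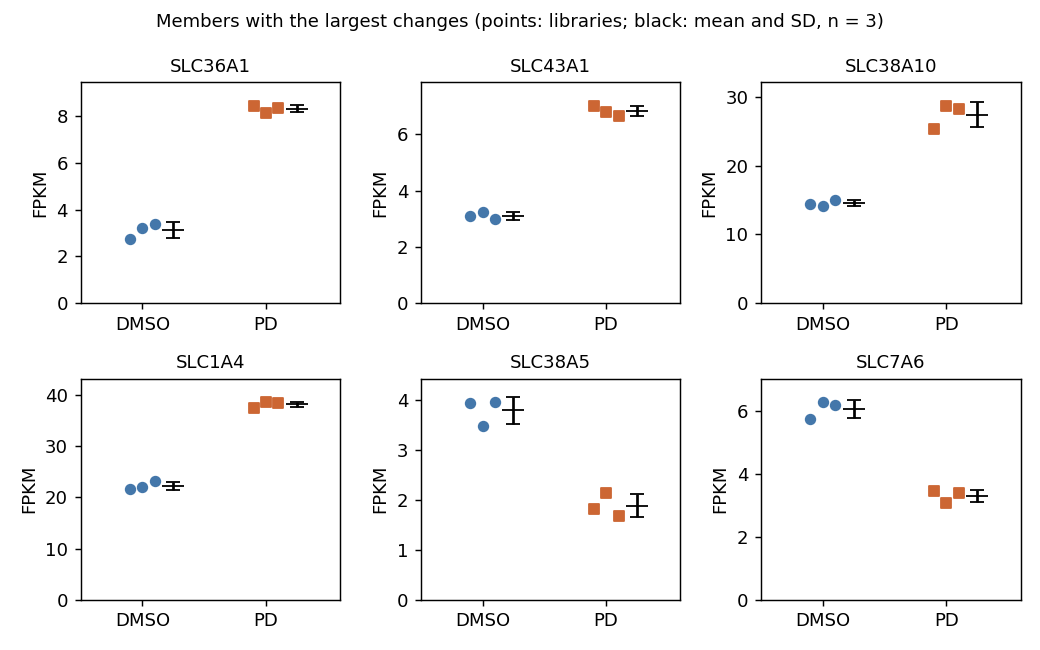
FPKM in each library for the 6 tested members with the largest changes, with axes from 0 and with the mean and SD (n = 3) beside the points. SLC36A1, SLC43A1, SLC38A10 and SLC1A4 are higher in all 3 PD libraries, and SLC38A5 and SLC7A6 are lower in all 3.

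SLC36A1 (PAT1, ENSG00000123643, chr5:151437046-151492379), a proton-coupled carrier of small neutral amino acids on lysosomes and the plasma membrane, had the largest change. Its level was 2.75, 3.22 and 3.40 FPKM in the DMSO libraries and 8.42, 8.13 and 8.35 FPKM in the PD libraries. These values rest on 331 to 406 fragments per DMSO library and 950 to 1062 per PD library, and every PD library was above every DMSO library by more than the range of either group. The log2 fold change was 1.18 (SE 0.0683, 95% interval 1.02 to 1.34, adjusted p = 1.3e-05), a ratio of 2.66. SLC36A4 (PAT4), its high-affinity relative, had 3.86 ± 0.277 FPKM in DMSO and 3.85 ± 0.287 FPKM in PD, and its log2 fold change of -0.00 had an interval of -0.17 to 0.16.

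The facilitated carriers of large neutral amino acids in SLC43 were higher. SLC43A1 (LAT3, ENSG00000149150, chr11:57484534-57515780), which takes leucine and other large neutral amino acids across without exchange and without SLC3A2, had 3.08, 3.24 and 2.98 FPKM in DMSO and 7.0, 6.80 and 6.65 FPKM in PD. Behind them were 180 to 192 fragments per DMSO library and 383 to 447 per PD library. SLC43A1 rose by 0.93 (SE 0.0509, 95% interval 0.81 to 1.05, adjusted p = 9.9e-06), a ratio of 2.20. As for SLC38A5, the pseudocount keeps SLC43A1 just short of 2-fold, and it reached 1.11 with a pseudocount of 0.1 and in voom.

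SLC43A2 (LAT4), a carrier of the same substrates, had 1.85 ± 0.0185 FPKM in DMSO and 2.91 ± 0.0540 FPKM in PD, with a log2 fold change of 0.45 (adjusted p = 0.00041). SLC43A3, a carrier of purine nucleobases and not of amino acids, did not pass, with 18.5 ± 1.64 FPKM in DMSO and 17.1 ± 0.599 FPKM in PD and an interval of -0.26 to 0.04.

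Among carriers of large neutral amino acids, PD libraries therefore held more SLC43A1 and SLC43A2, less SLC3A2 and a level of SLC7A5 whose groups overlapped. The levels remained far apart, since SLC7A5 had 916 ± 25.6 FPKM in PD and SLC43A1 had 6.82 ± 0.178 FPKM.

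Amino acid transporters of other families were taken as lists for context. Of 11 carriers of the plasma membrane, 3 were tested, with 1 higher, 1 lower and 1 not passed. The glycine carrier SLC6A9 (GLYT1) had 42.1 ± 2.99 FPKM in DMSO and 28.2 ± 0.555 FPKM in PD, a log2 fold change of -0.56 (adjusted p = 1.0e-04). SLC6A15, a carrier of branched-chain amino acids and proline, had 1.21 ± 0.0642 and 1.59 ± 0.0880 FPKM, a log2 fold change of 0.23 (adjusted p = 0.032) that was lost when any 1 library was left out, with the replicate number as a block and with upper quartile scaling.

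The list of carriers of lysosomes and mitochondria held genes of other families and SLC38A9. It gave 6 higher, 3 lower and 3 not passed of 12 tested out of 18 listed. Its median log2 fold change was 0.19, against 0.01 for all genes. The exporter of lysine and arginine from lysosomes, SLC66A1 (PQLC2), had 8.06 ± 0.230 FPKM in DMSO and 16.9 ± 0.413 FPKM in PD, a log2 fold change of 0.99 (adjusted p = 3.8e-06). CTNS, which exports cystine from lysosomes, had 7.96 ± 0.301 and 12.9 ± 0.413 FPKM, a log2 fold change of 0.64. The mitochondrial carriers of basic amino acids SLC25A29 and of ornithine SLC25A15 had log2 fold changes of 0.74 and 0.49. SLC38A9, the lysosomal arginine sensor left out of the members by the rule, is counted among the 6 higher. It had 1.66 ± 0.107 FPKM in DMSO and 2.15 ± 0.0845 FPKM in PD, a log2 fold change of 0.24 (adjusted p = 0.018).

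Partners that bind or regulate these carriers gave 1 higher, 3 lower and 1 not passed of 5 tested out of 6 listed. NEDD4L, a ubiquitin ligase of membrane transporters, had a log2 fold change of -0.42 (adjusted p = 0.00063), and CD44, which binds SLC7A11 at the membrane, had 0.38 (adjusted p = 2.0e-04). ARL6IP5, which binds SLC1A1, had -0.15, and LAPTM4B, which brings SLC7A5 and SLC3A2 to lysosomes, had -0.09. The count of partners that were lower was 1 in place of 3 when DMSO replicate 2, DMSO replicate 3 or PD replicate 2 was left out.

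The amino acid response list of ATF4 and its known partners and targets had 9 higher, 2 lower and 8 not passed of 19 tested, with a median log2 fold change of 0.14. ATF4 itself had 189 ± 3.79 FPKM in DMSO and 185 ± 5.30 FPKM in PD and did not pass (log2 fold change -0.03, adjusted p = 0.45), although ATF4 is known to be set largely by translation, which these data do not measure. DDIT3 (CHOP), a stress factor, had 12.9 ± 2.46 and 28.3 ± 3.32 FPKM, a log2 fold change of 1.08 (adjusted p = 4.0e-04), and its exons overlap other genes on both strands. ASNS, which makes asparagine, had 107 ± 2.21 and 189 ± 2.52 FPKM, a log2 fold change of 0.81 (adjusted p = 2.7e-06). CHAC1, which degrades glutathione, had 0.74, and CEBPB had -0.37. Some members are counted as targets of ATF4, and those named here are not a complete list. SLC1A4 rose with these genes, whereas SLC38A2, SLC7A1 and SLC3A2 were lower. SLC7A5 and SLC7A11 did not pass at the main setting. SLC1A5, which has a TGATGNAA match, was also lower, with a log2 fold change of -0.14.

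The list of NRF2 (NFE2L2), KEAP1 and NRF2 targets had 9 higher and 2 lower of 11 tested, with a median log2 fold change of 0.40. HMOX1, which degrades heme, had 3.92 ± 0.25 FPKM in DMSO and 13.1 ± 0.761 FPKM in PD, a log2 fold change of 1.51 (adjusted p = 3.5e-06). OSGIN1 had 8.25 ± 0.360 and 23.2 ± 2.73 FPKM, a log2 fold change of 1.38, and its exons overlap another gene on the same strand. NFE2L2 itself was lower, with 29.6 ± 0.820 and 15.6 ± 0.976 FPKM, a log2 fold change of -0.88 (adjusted p = 1.1e-05). The exons of NFE2L2 overlap other genes on both strands. The other of the 2 lower genes was the target TXNRD1, the most abundant gene of the list. It had 253 ± 8.80 FPKM in DMSO and 198 ± 6.37 FPKM in PD, a log2 fold change of -0.35 (adjusted p = 0.00016). SLC7A11, also a target of NRF2, was not among the genes that rose.

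Enzymes of glutamine, arginine, branched-chain amino acid and glutathione metabolism gave 6 higher, 2 lower and 3 not passed of 11 tested out of 14 listed, with a median of 0.14. BCAT2, the mitochondrial aminotransferase of branched-chain amino acids, had 8.82 ± 0.563 and 13.4 ± 0.273 FPKM, a log2 fold change of 0.56. ASL of the urea cycle and GSS of glutathione synthesis had 0.45 and 0.33.

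The sensors that report amino acids to mTORC1 gave 3 higher, 1 lower and 2 not passed of 6 tested out of 7 listed, with a median of 0.33. SESN3, of the sestrin family that includes the leucine sensor SESN2, had 1.58 ± 0.133 FPKM in DMSO and 7.12 ± 0.687 FPKM in PD, a log2 fold change of 1.65 (adjusted p = 6.0e-06). SESN1 and SESN2 had 0.58 and 0.32, and LARS1, the leucyl-tRNA synthetase, had -0.30.

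**Figure D4:**
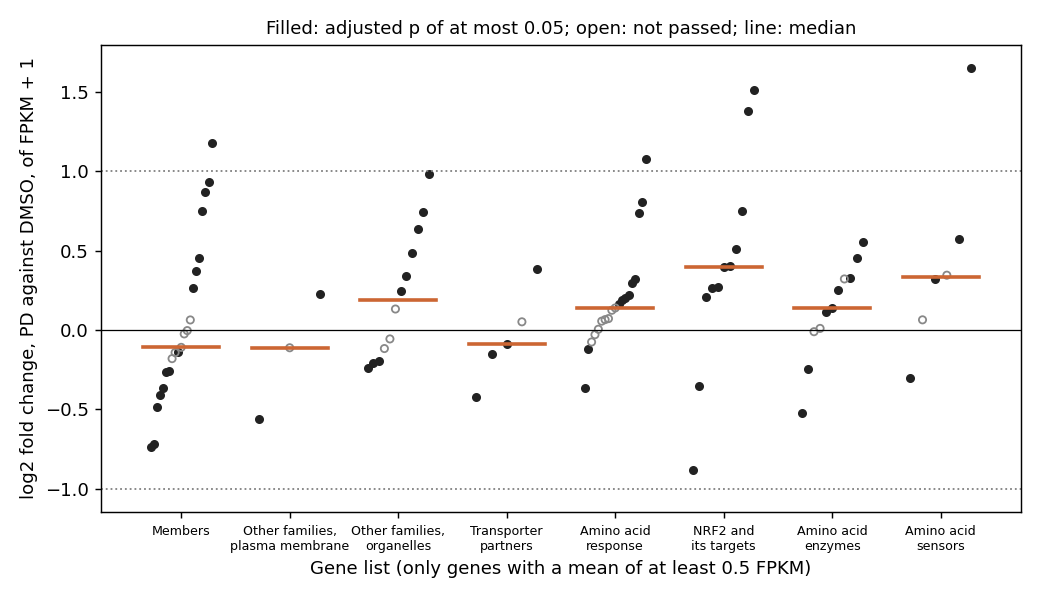
Log2 fold change of FPKM + 1 in PD against DMSO for the tested members and for 7 other gene lists, with 1 point per gene and a line at the median. Filled points passed an adjusted p of 0.05, open points did not, and the medians run from -0.11 for both the members and the plasma membrane carriers of other families to 0.40 for NRF2 and its targets.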

How the data were processed

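RNA from 3 HepG2 dishes treated with PD and 3 treated with DMSO was sequenced, and groups and replicate numbers were taken from the sample labels, which give no batch. Per the labels and the paper, the authors selected poly(A) RNA, made NEBNext Ultra libraries, aligned reads to hg38 with HISAT2 and counted them with HTSeq 0.6.0. The authors deposited these counts only as FPKM, in a single table with all 6 value columns assigned to samples. The annotation release and the use of strand are not given in the sources used here. The members and gene lists were chosen with earlier results of these data known.

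Symbols, biotypes and overlaps of exons were taken from GENCODE release 44, and promoters and motifs from RefSeq. Genes averaging 0.5 FPKM or more, 14400 in all, were fitted on log2(FPKM + 1) in R 4.3.3 using limma 3.58.1 with trend and without covariates, and Benjamini-Hochberg adjustment ran over all of them. A DEG needed both an adjusted p no larger than 0.05 and a 2-fold change on the scale of the fit. Adding 1 to each FPKM makes changes of low genes look smaller. Since dishes of the same line were compared, p-values measure the spread between dishes only. Replicates were checked as separate libraries, and no pair agreed within sampling noise.

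Whole fragments were worked back from the FPKM within a tolerance of 0.0001, by the annotated exon length for 12772 genes and by a common step for 15791, and served to describe depth and for voom. The alternatives were a pseudocount of 0.1, no filter, the replicate number as a block, each library left out in turn, median-of-ratios and upper quartile scaling, and voom on genes with at least 10 fragments in 3 libraries, with TMM factors. The fits were run first on simulated data whose only changes were larger than 2-fold, so that run does not bear on the smaller changes reported here. Values in every library are printed for members with a called log2 fold change of at least 0.5 in size or a mean of at least 20 FPKM, and up to 4 genes are named from each list by size of change, together with ATF4, NFE2L2 and SLC38A9; some genes that this rule takes are not reported here. Genes whose exons overlap another gene, some members among them, are uncertain to the extent that reads of the overlap were counted for either.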

Additional observations from a re-analysis of the deposited data

How the results depend on the processing

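None of the 15 members that passed changed sign under the alternatives. Of the 6 that did not pass, SLC7A5, SLC36A4 and SLC38A6 changed sign when 1 library was left out, with log2 fold changes over all settings of -0.07 to 0.00, -0.05 to 0.04 and -0.01 to 0.13. With 1 member called as a DEG, the count rose to 2 higher with a pseudocount of 0.1, where SLC43A1 joined SLC36A1, and to 2 higher and 1 lower in voom, where SLC38A5 was also called, out of 22 members tested and against 11.4% of all genes. Over all genes, 520 DEGs were called at the main setting, 1248 with a pseudocount of 0.1 and 1726 in voom. Members at an adjusted p of at most 0.05 numbered 7 higher and 8 lower, 6 higher without the filter, 9 lower with either scaling and 10 lower in voom.

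SLC7A11 passed without DMSO replicate 3 (adjusted p = 0.035), with median-of-ratios scaling (0.046), with upper quartile scaling (0.033) and in voom (0.0044), and SLC7A6OS passed without PD replicate 3 (0.018) and in voom (0.027). SLC1A1 did not pass without the filter or without DMSO replicate 1 or 3 or PD replicate 1 or 2. The partners list had 1 gene lower in place of 3 under the block and without DMSO replicate 2 or 3 or PD replicate 2.

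Replicate numbers are shared by the groups, but libraries of the same number did not deviate together (correlations of -0.03, -0.00 and 0.09), so they were not taken as pairs. With the replicate number as a block, 7 members were higher and 8 lower, 1 was called higher and 0 lower, and 518 genes were called in all. The 10 members under the filter had at most 13 fragments in a library, and 1 of them, SLC7A8, was tested in voom and did not pass.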
